A study of Mus musculus with 12 samples.

Results

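The genes described here encode the C1q chains C1qa, C1qb and C1qc, the C1s protease C1s1, the C1 inhibitor Serping1, the central complement component C3, properdin (Cfp) and the anaphylatoxin receptors C3ar1 and C5ar1. These 9 genes of the 46983 in the count tables were found by their symbols. They were selected with measured values of these hearts in view. The study's own list for Hif1a+/- offspring of diabetic pregnancy, set against Wt of non-diabetic pregnancy, holds 6 of them (C1qa, C1qb, C1qc, C3ar1, C5ar1 and Cfp). Their differences between groups are therefore given as a description, and the calls that fits across all genes made among them are counted but support nothing. All 9 passed the filter on low counts that left 14706 genes for testing, with between 69 reads (C5ar1) and 9770 reads (Serping1) in a library.

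RNA from the left ventricle (LV) of 12-week-old FVB mice was sequenced with 3 mice in each of 4 groups. The groups were Wt and Hif1a+/- offspring of non-diabetic pregnancy and Wt and Hif1a+/- offspring of diabetic pregnancy. Hif1a+/- mice carry 1 copy of the Hif1a tm1jhu null allele in every cell, so the loss is not confined to the heart, and the Wt mice carry none. In both genotypes the dams were Wt and the sires Hif1a+/-, and maternal diabetes was induced in the dams by streptozotocin before mating, so that no offspring was itself injected. The study drew the mice of a group from several litters. The comparisons ask whether genotype, maternal diabetes or both together change the LV transcriptome.

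Complement is a cascade of plasma and locally made proteins that tags microbes, immune complexes and dying cells. C1q recognises the target and activates the proteases C1r and C1s, the route goes on through C4 and C2 to the cleavage of C3, and the fragments C3a and C5a call in leukocytes through C3ar1 and C5ar1. Properdin stabilises the C3 convertase of the alternative pathway, and Serping1 blocks C1r and C1s. In most tissues C1q is made mainly by macrophages, whereas C3, C1s and Serping1 are also made by fibroblasts and other stromal cells.

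Counts are reads that the authors assigned to each gene from 3′-seq libraries, which sample each transcript near its 3′ end. Levels are given as normalized read counts, the authors' counts divided by 1 size factor per library, and compare mice for the same gene but not one gene with another. Total counts were between 16132442 and 39812939 per library. In 11 libraries the Y-linked gene Ddx3y had between 1721 and 2477 normalized reads and Xist at most 134. In diabetic Hif1a+/- replicate 72, Ddx3y had 7.87 and Xist 3539. The labels give female for all the mice, and the study states males. By these genes the 11 libraries read as male, against the labels, and replicate 72 as female, against the study. Sex was thus mixed within the diabetic Hif1a+/- group. Non-diabetic Wt replicate 25 held 164324 normalized reads of 5 red cell genes against 4184 to 39929 elsewhere. Results are therefore also given without these 2 libraries. Hif1a itself had 1081 to 1618 normalized reads in Wt and 1448 to 2004 in Hif1a+/- mice, but 3′ reads lie outside the deleted part of the allele, so this checks no label. Heart muscle was borne out by the cardiomyocyte genes, since Myh6, the main heart myosin of the adult mouse, had at least 594383 normalized reads in every library. These genes are not particular to 1 chamber, so the LV label itself was not checked.

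The 3 C1q genes lie side by side on the minus strand of chromosome 4 in the GRCm38 assembly. C1qb (ENSMUSG00000036905) spans 136880129 to 136886187, C1qc (ENSMUSG00000036896) 136889804 to 136893065 and C1qa (ENSMUSG00000036887) 136895917 to 136898803. C3ar1 (ENSMUSG00000040552) lies on chromosome 6 from 122847138 to 122856161 and C1s1 (ENSMUSG00000038521) on the same chromosome from 124530345 to 124542359. C5ar1 (ENSMUSG00000049130) is on chromosome 7 from 16246743 to 16259540, C3 (ENSMUSG00000024164) on chromosome 17 from 57203970 to 57228136, Serping1 (ENSMUSG00000023224) on chromosome 2 from 84765387 to 84775444 and Cfp (ENSMUSG00000001128) on chromosome X from 20925454 to 20931555. All are protein coding and on the minus strand. An antisense gene, Gm16567, runs across C1s1 on the other strand and had 0 counted reads in each library. The strand setting of the counting is not given in the sources used here.

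The stretches just upstream of the start sites of 4 genes with their highest level in the same group are shown to give the sequence that these genes do or do not share. They are from RefSeq windows (GRCm38.p6) of 250 bases before to 50 bases after the annotated start, trimmed to the part outside any annotated exon and written 5′ to 3′ on the gene's strand, at chr4:136886201-136886450, chr4:136893066-136893164, chr6:122856162-122856407 and chrX:20931556-20931805 in that order. Capitals mark the letters GAGGAA (a core of ETS factor sites, PU.1 included), TGCTGA (a core of MAF factor sites) and ACGTG or GCGTG (cores of the hypoxia response element), searched on both strands.
C1qb: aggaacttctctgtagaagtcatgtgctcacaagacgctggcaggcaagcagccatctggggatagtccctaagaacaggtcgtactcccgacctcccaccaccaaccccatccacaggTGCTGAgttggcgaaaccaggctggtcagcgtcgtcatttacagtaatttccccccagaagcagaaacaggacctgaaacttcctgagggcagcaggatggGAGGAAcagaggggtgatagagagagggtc
C1qc: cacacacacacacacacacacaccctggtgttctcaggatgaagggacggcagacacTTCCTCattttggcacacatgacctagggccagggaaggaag
C3ar1: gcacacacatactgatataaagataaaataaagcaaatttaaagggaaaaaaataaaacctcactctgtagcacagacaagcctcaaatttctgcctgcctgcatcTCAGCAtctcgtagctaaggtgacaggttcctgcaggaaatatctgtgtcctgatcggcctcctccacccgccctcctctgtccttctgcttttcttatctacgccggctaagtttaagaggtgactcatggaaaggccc
Cfp: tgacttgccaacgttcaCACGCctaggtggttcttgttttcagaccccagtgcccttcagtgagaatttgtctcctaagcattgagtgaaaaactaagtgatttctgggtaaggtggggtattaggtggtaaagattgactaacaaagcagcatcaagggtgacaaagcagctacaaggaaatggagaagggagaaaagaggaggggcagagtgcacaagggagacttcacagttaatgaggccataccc

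The RefSeq table held windows for 7 of the 9 genes, 8 windows in all because C1s1 has 2 starts. After the same trimming, the stretch of C3 held 1 match (TGCTGA) and that of C5ar1 0, and neither is shown. GAGGAA was present in 3 of the 8 windows (C1qb, C1qc and Cfp, where both matches lie 6 and 22 bases after the start) and in 28.3% of the 32851 windows of the same length. In C1qb it began at position -30 from the start, and TGCTGA at -131. TGCTGA was in 4 windows (C1qb, C3, C3ar1 and C5ar1) against 19.5% of all windows. ACGTG was in 0 of the 8 windows against 19.6% of all, and GCGTG in the Cfp window alone, at position -233, against 32.4%. ACGTG read on both strands overlaps itself within CACGTG. These are matches of letters in short windows and name no bound site, and no capitals in a window say only that the letters are not there.

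The C1q chains form the recognition part of the classical pathway, and each had its highest mean in diabetic Hif1a+/- hearts and its lowest in non-diabetic Hif1a+/- hearts. C1qa had 1115, 1129 and 1557 normalized reads in non-diabetic Wt mice, 1379, 1265 and 2185 in the diabetic Wt mice, 1161, 871 and 1305 in non-diabetic Hif1a+/- and 1962, 1724 and 3076 in diabetic Hif1a+/-. C1qb had 833, 850.4 and 1155, then 926, 1075 and 1687, then 845, 607 and 817, and then 1569, 1360.1 and 2526 normalized reads in the same order of groups. C1qc had 1034, 1011 and 1299.9, then 1012, 1208 and 1872, then 969, 817 and 1032, and then 1749, 1476 and 2531. For each chain the 3 diabetic Hif1a+/- mice lay above all the non-diabetic mice of both genotypes, and diabetic Wt replicate 80 lay among them. The other 2 diabetic Wt mice lay within or close to the range of the non-diabetic mice.

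On the log2 scale, with standard errors from edgeR's fit over the 12 libraries, diabetic exceeded non-diabetic Hif1a+/- hearts by 1.01 ± 0.24 for C1qa, 1.25 ± 0.25 for C1qb and 1.02 ± 0.22 for C1qc, which are 2.01, 2.39 and 2.03-fold. Between diabetic and non-diabetic Wt the differences were 0.34 ± 0.24, 0.37 ± 0.25 and 0.28 ± 0.22 in the same order of genes, and the samples overlapped. Diabetic Hif1a+/- exceeded diabetic Wt by 0.49 ± 0.24, 0.57 ± 0.25 and 0.49 ± 0.22, again with overlap, and non-diabetic Wt by 0.82 ± 0.24, 0.93 ± 0.25 and 0.78 ± 0.22. Non-diabetic Hif1a+/- differed from non-diabetic Wt by -0.19 ± 0.24, -0.32 ± 0.25 and -0.24 ± 0.22.

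Single mice weighed on these values. Without diabetic Hif1a+/- replicate 77, the mouse with the most C1q reads, the difference between diabetic and non-diabetic Hif1a+/- was 0.72 for C1qa, 0.95 for C1qb and 0.78 for C1qc, and that from diabetic Wt was 0.20, 0.26 and 0.25. Without diabetic Wt replicate 80 the differences between diabetic and non-diabetic Wt fell to 0.06, 0.08 and -0.01, and those between diabetic Hif1a+/- and diabetic Wt rose to 0.76, 0.85 and 0.78. Without replicates 25 and 72 together the difference within Hif1a+/- was 1.17, 1.43 and 1.18.

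**Figure D1:**
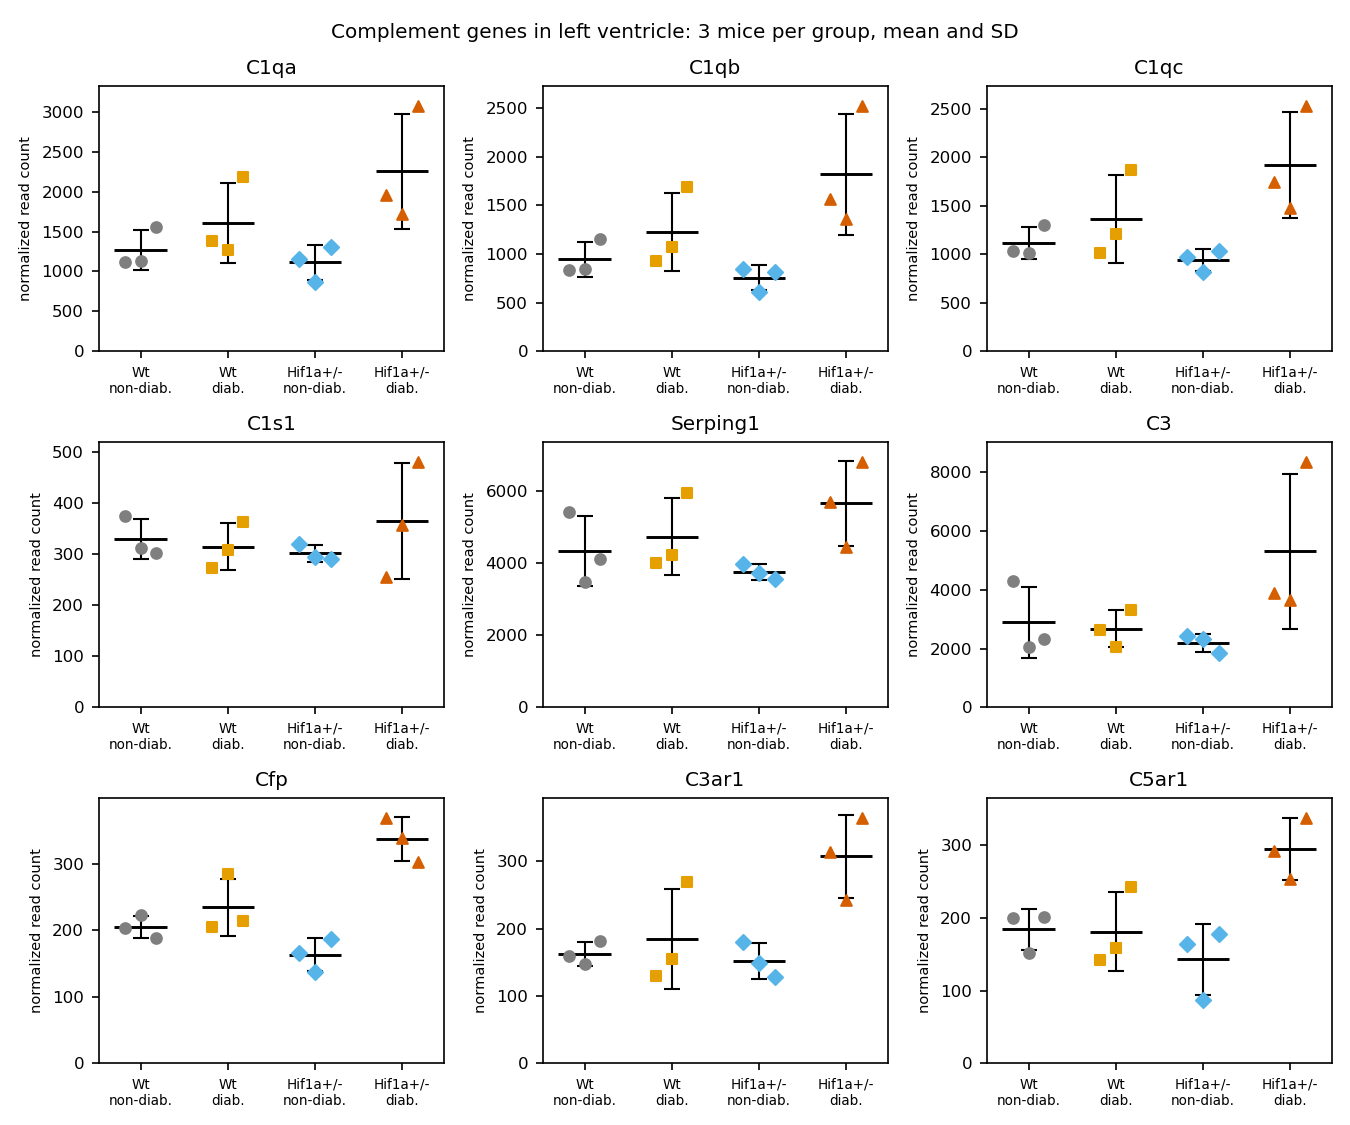
Normalized read count (vertical axes, each from 0) of the 9 complement genes in each of the 12 mice, by group along the horizontal axes. Points are mice, horizontal lines group means and bars ± 1 SD (n = 3). The 3 diabetic Hif1a+/- mice lie above all the non-diabetic mice for C1qa, C1qb, C1qc, Cfp, C3ar1 and C5ar1, and C1s1 overlaps between all groups.

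The chains were read in nearly fixed proportion. C1qa reads divided by C1qb reads ranged from 1.18 to 1.60 over the 12 mice, and C1qc over C1qb from 1.00 to 1.35. These are ratios of 3′ reads and not of transcripts, but each can be compared between mice. C1qa over C1qb was 1.25 ± 0.0251 (SD, n = 3) in diabetic Hif1a+/- hearts and 1.47 ± 0.116 (SD, n = 3) in non-diabetic Hif1a+/- hearts, where every mouse was higher. C1qc over C1qb was 1.07 ± 0.0584 (SD, n = 3) and 1.25 ± 0.10 (SD, n = 3) in the same groups, again without overlap. C1qb was thus the chain that differed most between these groups. In Wt mice the ratio C1qa over C1qb was 1.34 ± 0.00987 (SD, n = 3) without and 1.32 ± 0.158 (SD, n = 3) with maternal diabetes.

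C1s1, the protease that C1q-bound C1r activates, and Serping1, its inhibitor, showed smaller differences. C1s1 had 374, 312 and 301 normalized reads in non-diabetic Wt mice, 272, 308 and 363 in the diabetic Wt mice, 319.8, 294 and 290.0 in non-diabetic Hif1a+/- and 255, 357 and 481 in diabetic Hif1a+/-. The diabetic Hif1a+/- mice thus held both the lowest and the highest C1s1 level of the series. The difference within Hif1a+/- was 0.26 ± 0.19 and fell to 0.01 without replicate 77. C1s1 has a near-identical copy, C1s2, with 12 to 39 reads in a library, so reads that could not be placed between them were not counted.

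Serping1 had 5397, 3468 and 4119.8 normalized reads in non-diabetic Wt mice, 4003, 4219 and 5940.1 in the diabetic Wt mice, 3972, 3713 and 3551 in non-diabetic Hif1a+/- and 5680.5, 4452 and 6802 in diabetic Hif1a+/-. Within Hif1a+/- the groups did not overlap and differed by 0.58 ± 0.18, with means of 3745 and 5645 normalized reads. Diabetic Hif1a+/- overlapped both Wt groups, in which replicates 25 and 80 were high.

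C3, whose cleavage is common to the complement routes, had a difference within Hif1a+/- about that of C1qb (1.26 against 1.25) and a wide spread. It had 4284, 2064 and 2337 normalized reads in non-diabetic Wt mice, 2629, 2061 and 3314 in the diabetic Wt mice, 2421, 2307 and 1858 in non-diabetic Hif1a+/- and 3899.6, 3661 and 8355 in diabetic Hif1a+/-. The 3 diabetic Hif1a+/- mice lay above the other mice except non-diabetic Wt replicate 25. The difference within Hif1a+/- was 1.26 ± 0.32, or 2.40-fold, and fell to 0.78 without replicate 77, the mouse with the most C3 reads. Diabetic Hif1a+/- exceeded diabetic Wt by 0.99 ± 0.32, or 0.51 without replicate 77. Against non-diabetic Wt the difference was 0.87 ± 0.32, 0.39 without replicate 77, 1.27 without replicate 25 and 1.47 without replicates 25 and 72. Between diabetic and non-diabetic Wt it was -0.12 ± 0.32 with replicate 25 and 0.28 without it.

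Cfp encodes properdin, which stabilises the alternative pathway convertase. It had 204, 223 and 189 normalized reads in non-diabetic Wt mice, 205, 284 and 214 in the diabetic Wt mice, 165, 138 and 187 in non-diabetic Hif1a+/- and 369, 339 and 303 in diabetic Hif1a+/-. All 3 diabetic Hif1a+/- mice exceeded all the other mice, which of the 9 genes held for Cfp and C5ar1. The SD within the diabetic Hif1a+/- group was 9.86% of the mean, against 28.5% to 34.2% for the C1q chains. The difference was 1.04 ± 0.16 within Hif1a+/- and stayed between 0.94 and 1.15 when any 1 library was left out. Diabetic Hif1a+/- exceeded diabetic Wt by 0.52 ± 0.15. Cfp was also lower in each non-diabetic Hif1a+/- mouse than in each non-diabetic Wt mouse, by -0.32 ± 0.16, and the highest and lowest of these mice were 187 and 189.

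C3ar1 and C5ar1 encode the receptors through which C3a and C5a act on myeloid cells. C3ar1 had 159, 147 and 182 normalized reads in non-diabetic Wt mice, 130.0, 155 and 269 in the diabetic Wt mice, 180.0, 149 and 128 in non-diabetic Hif1a+/- and 315, 243 and 365 in diabetic Hif1a+/-. C5ar1 had 199.8, 152 and 201, then 141, 159 and 243, then 164, 87.3 and 177, and then 292, 254 and 338 in the same order. Both receptors were highest in diabetic Hif1a+/- mice, where for C3ar1 the range overlapped that of diabetic Wt through replicates 80 and 72 alone. Within Hif1a+/- the difference was 1.00 ± 0.24 for C3ar1 and 1.03 ± 0.25 for C5ar1. Diabetic Hif1a+/- exceeded diabetic Wt by 0.75 ± 0.23 for C3ar1 and 0.71 ± 0.24 for C5ar1, and the 2 Wt groups differed by 0.16 ± 0.24 and -0.04 ± 0.25.

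**Figure D2:**
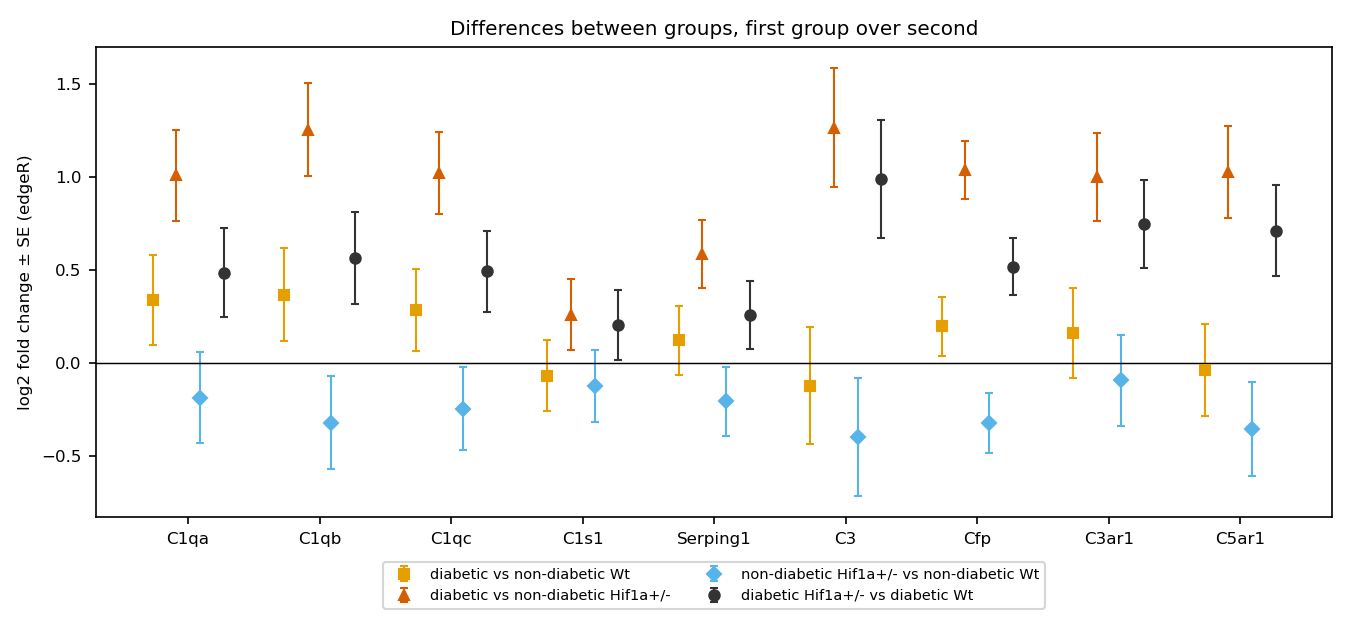
Log2 fold change (vertical axis, first group over second, ± standard error from edgeR) of the 9 genes (horizontal axis) in 4 comparisons. Within Hif1a+/- the values lie between 0.26 (C1s1) and 1.26 (C3), between the Wt groups between -0.12 (C3) and 0.37 (C1qb), and the 9 values of non-diabetic Hif1a+/- over non-diabetic Wt lie below 0.

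By mean level, non-diabetic Hif1a+/- was the lowest group and diabetic Hif1a+/- the highest for each of the 9 genes. Neighbours in the order of the 4 groups overlapped for most of them. Neighbouring groups were apart only for Cfp, at the bottom and the top of the order, and for C5ar1, where diabetic Hif1a+/- stood above non-diabetic Wt. Both non-diabetic Hif1a+/- and diabetic Hif1a+/- enter several comparisons, so the differences given here are not independent of each other.

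Every sample of diabetic Hif1a+/- lay above every sample of non-diabetic Hif1a+/- for 8 of the 9 genes (C1s1 overlapped), against 11.8% of the 14706 genes tested. The median log2 fold change of the 9 genes was 1.02 and that of the tested genes -0.01. Against non-diabetic Wt the groups were apart for 6 of the 9 genes (7.81% of tested genes), with a median of 0.78. Against diabetic Wt they were apart for 3, namely C3, Cfp and C5ar1 (4.26%), with a median of 0.52. Diabetic lay wholly above non-diabetic Wt for 0 of the 9 (2.24%), with a median of 0.16. Non-diabetic Hif1a+/- lay wholly above non-diabetic Wt for 0 genes (2.45%) and wholly below for Cfp (2.31%), with a median of -0.24. Because the genes were chosen on such differences, nothing is read from their share against that of all genes.

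With edgeR's quasi-likelihood test and an adjusted p under 0.1, 0 of the 9 genes and 0% of the tested genes were called in any of the 6 comparisons, the genotype by diabetes interaction included. With DESeq2, the authors' tool, the C1q chains, C3ar1, C5ar1 and Cfp were called between diabetic and non-diabetic Hif1a+/- (1.44% of the genes it tested). The same 6 genes stand on the study's list, made from these hearts with the same tool. The calls are thus circular and no independent evidence. The study's list is set against non-diabetic Wt and not against non-diabetic Hif1a+/-. Between diabetic Hif1a+/- and non-diabetic Wt, C1qb, C1qc, C3ar1 and Cfp were called here (0.453%), a count that fell from 4 to 0 without replicate 25. C1qa and C5ar1 were not called in that comparison. DESeq2 called 0 of the 9 between diabetic Hif1a+/- and diabetic Wt (0.155%), between the Wt groups (0.0148%), between the non-diabetic groups (0.00369%) and in the interaction (0%). An unadjusted edgeR p under 0.05 was reached by 1764 genes within Hif1a+/-, 1302 between diabetic Hif1a+/- and non-diabetic Wt, 787 between the diabetic groups, 409 between the Wt groups, 141 between the non-diabetic groups and 371 in the interaction. The interaction asks whether the effect of maternal diabetes differed between genotypes. Its estimates ran from 0.33 ± 0.27 (C1s1) to 1.39 ± 0.45 (C3). With all libraries in the fit, filtered edgeR and DESeq2 called it for 0 of the 9. Without the low-count filter, edgeR called it for 5 of the 9 (0.288% of all genes). DESeq2 called 1 of the 9 in the interaction without diabetic Wt replicate 7.

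Correlation from mouse to mouse within groups was not used to choose the genes, although the study's list left out genes of great variability. After group means of the log2 normalized count plus 1 were removed, the C1q chains correlated with each other over the 12 mice with Pearson's r from 0.94 to 0.98 and Spearman's rho from 0.90 to 0.94, and r from 0.87 to 0.96 without the 2 mice farthest from the median. C5ar1 followed the C1q chains with r from 0.78 to 0.80 (rho from 0.78 to 0.90), and from 0.73 to 0.76 without the farthest 2. C3ar1 did so with r from 0.70 to 0.84 (rho from 0.69 to 0.79), and from 0.42 to 0.66 without them. The 12 points share library preparation, depth scaling and, through the group means, only 8 degrees of freedom, and these values are a description.

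Cfp went otherwise within groups. Its r with the chains was between -0.24 and -0.15 (rho from -0.05 to 0.07) and with C3 -0.54 (rho -0.52). In diabetic Hif1a+/- hearts Cfp was highest in replicate 66 and lowest in replicate 77, whereas the C1q chains, C3 and C5ar1 were highest in replicate 77. C3, Serping1 and C1s1 correlated with each other with r from 0.57 to 0.86 (rho from 0.55 to 0.85) and from 0.66 to 0.79 without the farthest 2. They were not a set apart, since Serping1 also followed C3ar1 with r = 0.77 (rho 0.81, and r = 0.67 without the farthest 2) and the C1q chains with r from 0.58 to 0.69 (rho from 0.53 to 0.70, and r from 0.21 to 0.39 without the farthest 2). Between the C1q chains and C3, r was 0.47 to 0.49 (rho from 0.43 to 0.50) and fell to between -0.01 and 0.02 without the 2 farthest mice, so that relation rested on those mice.

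**Figure D3:**
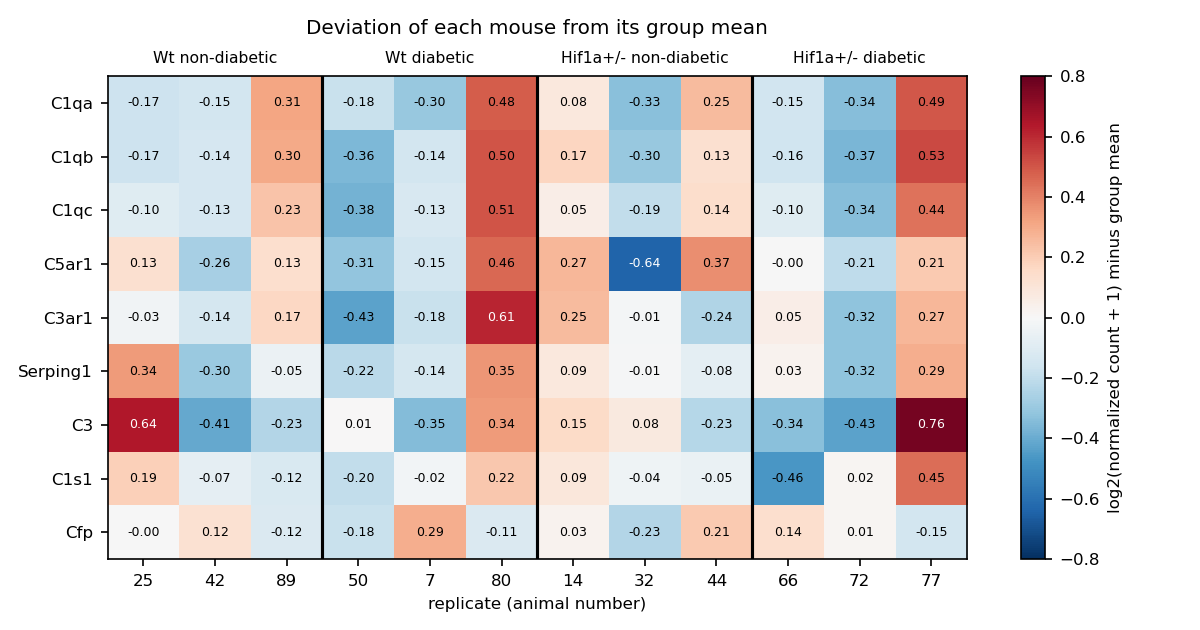
Deviation of each mouse from its group mean, in log2(normalized count + 1), for the 9 genes (rows) in the 12 mice (columns, by group and animal number), with red above and blue below the mean. The 3 C1q rows share their pattern, with replicate 80 at 0.48 to 0.51 and replicate 77 at 0.44 to 0.53, and the Cfp row runs otherwise, with -0.11 and -0.15 in these mice.

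The genes most like C1q were ranked by Pearson's r with the mean log2 CPM (counts scaled to a common library total, plus 1) of the 3 chains after removal of group means, over 12 mice and 14697 other tested genes. The first 10 were Ctss, Laptm5, Slamf9, Selplg, Lilra5, P2ry6, Cbr2, Ifi30, Npl and Pld4, with r from 0.97 to 0.94. Ctss, which encodes the lysosomal protease cathepsin S, had means of 320.4, 432, 292 and 518 normalized reads in non-diabetic Wt, diabetic Wt, non-diabetic Hif1a+/- and diabetic Hif1a+/-. Laptm5, a lysosomal membrane protein of blood cells, had 489, 593, 445 and 839. With the group means left in, 4 of the 10 (Laptm5, Ctss, P2ry6 and Cbr2) were again among the first 10. Ranks this close rest on 12 mice.

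Macrophage genes moved with the C1q genes. All 17 genes of a macrophage marker list passed the filter. In diabetic against non-diabetic Hif1a+/- hearts 16 were higher, with a median of 0.80, against 49.0% of all tested genes. Between diabetic and non-diabetic Wt 16 were higher too, with a median of 0.26, against 51.6% of all tested genes. The summed normalized reads of the 17 ranged from 7969 to 10812 in non-diabetic Wt and 8293 to 12950 in the diabetic Wt mice. They ranged from 6363 to 9642 in non-diabetic Hif1a+/- and 11906 to 16372 in diabetic Hif1a+/-. Of the defining markers, 0 were at 0 in any library. Cd68, a lysosomal glycoprotein, had 143 to 269 normalized reads in non-diabetic and 303 to 515 in diabetic Hif1a+/- hearts. Csf1r, the receptor on which macrophages depend, had 844 to 1331 and 1403 to 2184, Adgre1 (F4/80) 123 to 192 and 229 to 306, and Fcgr1 29.1 to 45.4 and 45.4 to 109.9. Mertk, a receptor for dying cells, had 150.1 to 193 and 141 to 179 and did not follow the others, with r = -0.56 to C1q within groups.

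Set against the macrophage sum, the C1q genes, Cfp and the receptors overlapped between the 2 Hif1a+/- groups. The 3 C1q genes together had 0.31 to 0.37 reads per macrophage-list read in non-diabetic Hif1a+/- hearts, 0.34 to 0.50 in diabetic Hif1a+/-, 0.35 to 0.38 in non-diabetic Wt and 0.35 to 0.44 in diabetic Wt. Cfp per 100 macrophage-list reads was 1.71 to 2.18 in non-diabetic and 1.85 to 2.85 in diabetic Hif1a+/- hearts, C3ar1 1.48 to 2.35 and 2.00 to 2.23, and C5ar1 1.37 to 2.06 and 1.86 to 2.13. In non-diabetic Wt the C3ar1 value was 1.69 to 1.87, below each diabetic Hif1a+/- mouse, and in diabetic Wt it was 1.51 to 2.07, which overlapped. Cfp had 1.75 to 2.79 and 1.66 to 2.78 and C5ar1 1.86 to 2.34 and 1.55 to 1.88 in non-diabetic and diabetic Wt, all of which overlapped diabetic Hif1a+/-. In whole LV RNA, more macrophages and more RNA of these genes per macrophage cannot be told apart. The part of macrophage number in the differences was not tested. The study counted stained macrophages in LV sections and reported a significant rise only in diabetic Wt. The mean of the macrophage-list reads was 9107 in non-diabetic and 10489 in diabetic Wt. It was highest in diabetic Hif1a+/- hearts, at 14662. Cells counted by a protein stain and RNA of whole LV are unlike measures.

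**Figure D4:**
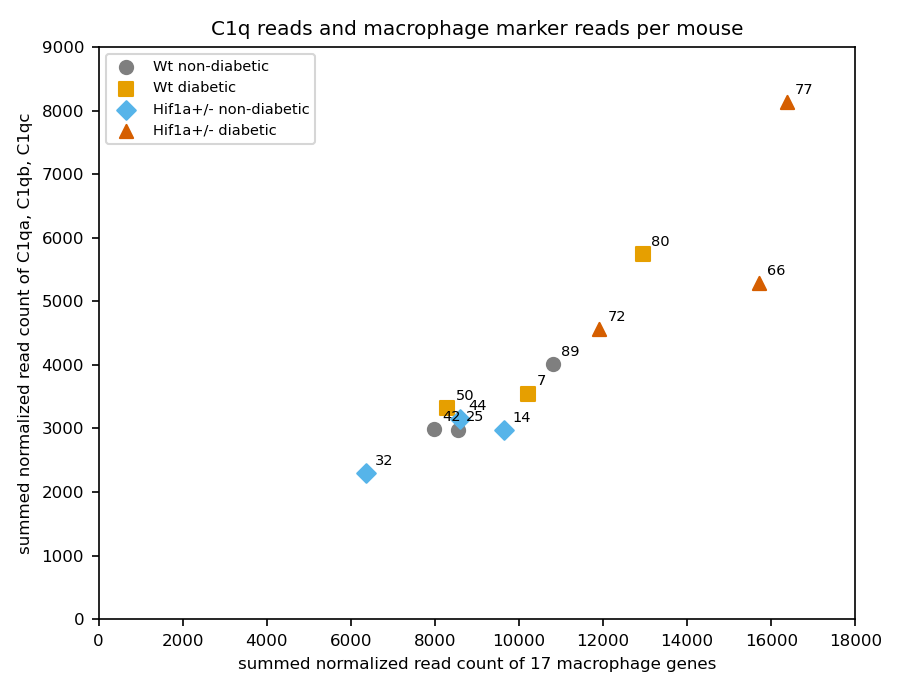
Summed normalized reads of C1qa, C1qb and C1qc (vertical axis) against summed normalized reads of 17 macrophage genes (horizontal axis) in each mouse, labelled by animal number and marked by group. The diabetic Hif1a+/- mice lie at 11906 to 16372 macrophage-list reads and diabetic Wt replicate 80 at 12950, and replicate 77 has the most C1q reads (8133).

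Other cell type markers were looked at in the same way, with counts within Hif1a+/- given as diabetic over non-diabetic. Of a fibroblast list, 13 of 13 genes were higher, with a median of 0.44, and its sum was 76753 to 80778 in non-diabetic Hif1a+/-, 83159 to 111170.3 in diabetic Hif1a+/-, 69927 to 93946 in non-diabetic Wt and 76732 to 114501 in diabetic Wt. Per 100 fibroblast-list reads C3 had 2.42 to 3.00 in non-diabetic and 3.29 to 8.18 in diabetic Hif1a+/- hearts, which did not overlap. In non-diabetic Wt the C3 value was 2.49 to 6.13 and in diabetic Wt 2.56 to 3.43, and both overlapped diabetic Hif1a+/-. Between the Hif1a+/- groups Serping1, with 4.63 to 4.92 and 4.00 to 6.83, and C1s1, with 0.37 to 0.40 and 0.31 to 0.47, overlapped. The part of fibroblast content was not tested. Of the monocyte and neutrophil list, 7 of 11 genes passed the filter and 6 were higher. S100a8 and S100a9 encode proteins of neutrophils and monocytes. They had 2.26 to 6.99 and 4.51 to 14.0 normalized reads in non-diabetic Hif1a+/- hearts. In diabetic Hif1a+/- hearts they had 23.6 to 58.0 and 47.2 to 73.0, and in non-diabetic Wt hearts they reached 143 and 229. Ly6g was at 0 in 10 of 12 libraries, and the list's sum overlapped between all groups. Of the lymphocyte list 3 of 11 genes passed the filter and 3 were higher. For endothelial genes 4 of 11 were higher, for cardiomyocyte genes 5 of 10, for adipocyte genes 5 of the 6 that passed, for red cell genes 4 of the 4 that passed and for mesothelial genes 2 of the 3 that passed. The summed levels of the lymphocyte, endothelial, cardiomyocyte, adipocyte, red cell and mesothelial lists overlapped between the 2 Hif1a+/- groups.

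The rest of the complement system was followed through 53 genes sorted by role. Of these 32 passed the filter, 12 had too few reads and 9, the lectins Mbl1 and Mbl2 and the terminal component C9 among them, had 0 reads in each library, where 3 reads, the limit that a count of 0 allows, are 0.0754 to 0.186 CPM. With edgeR 0 of the 32 were called in any comparison, and 12 had an unadjusted p under 0.05 within Hif1a+/-, 11 between diabetic Hif1a+/- and non-diabetic Wt, 6 between the diabetic groups, 2 between the Wt groups, 0 between the non-diabetic groups and 6 in the interaction. Among all 14706 tested genes the counts under 0.05 were 1764, 1302, 787, 409, 141 and 371 in the same order. DESeq2 called 6 within Hif1a+/- (Fcna, Cd55, Itgam, Itgb2, Lrp1 and Cpn2), 2 against non-diabetic Wt (Cd55 and Fcna) and 1 against diabetic Wt (Cd55). Of all the genes it tested, it called 1.44%, 0.453% and 0.155% in these comparisons. The 6 genes called within Hif1a+/- all stand on the study's list from these same hearts, set against non-diabetic Wt. They are thus no independent evidence of direction. Within Hif1a+/-, 24 of the 32 were higher and 8 lower, with a median of 0.29, and between the Wt groups 18 were higher and 14 lower, with a median of 0.03.

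Among the genes of classical and lectin initiation, 9 of the 10 that passed the filter were higher in diabetic than in non-diabetic Hif1a+/- hearts. Fcna, a ficolin that starts the lectin pathway and is made by macrophages, had 76.0, 43.0 and 59.8 normalized reads in non-diabetic and 290.1, 96.4 and 173 in diabetic Hif1a+/- mice. Its difference was 1.63 ± 0.35 (edgeR adjusted p = 0.178, DESeq2 adjusted p = 0.00234). C1ra, the partner protease of C1s, had 294, 314 and 322 and then 325, 459 and 589, a difference of 0.55 ± 0.21 (edgeR adjusted p = 0.364) that was 0.33 without replicate 77. C1ra and C1rb, as well as C4a and C4b, are near-identical pairs whose shared reads were not counted.

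Of the inhibitors, 5 of 9 were higher and 4 lower. Cd55, which speeds the decay of the convertases on cell surfaces, had 184, 221 and 209.9 normalized reads in non-diabetic and 387, 306 and 799.6 in diabetic Hif1a+/- mice, a difference of 1.27 ± 0.28 (edgeR adjusted p = 0.178, DESeq2 adjusted p = 0.00234) that was 0.76 without replicate 77. Cpn2, a subunit of the carboxypeptidase that inactivates C3a and C5a, went the other way, with 137, 151 and 123 and then 69.8, 75.7 and 84.0, a difference of -0.85 ± 0.20 (edgeR adjusted p = 0.206, DESeq2 adjusted p = 0.0195).

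Of the receptors, 8 of 10 were higher. Itgam and Itgb2, the chains of complement receptor CR3 of myeloid cells, differed by 1.29 ± 0.27 and 1.03 ± 0.25 (edgeR adjusted p = 0.178 and 0.214, DESeq2 adjusted p = 0.0111 for both). Lrp1, a scavenger receptor of macrophages and fibroblasts, had 3645, 3359.7 and 3440.3 and then 4723, 4720.4 and 6047 normalized reads, a difference of 0.56 ± 0.16 (edgeR adjusted p = 0.266, DESeq2 adjusted p = 0.0590). For the alternative pathway, Cfd, the factor D gene, was the only one that passed, with 0.85 ± 0.46, and 0.47 without replicate 72. Of the terminal components, C7 and C8g passed, with 0.32 ± 0.58 and -0.29 ± 0.19 (edgeR adjusted p = 0.850 and 0.538). The C7 value turned on single mice of the diabetic Hif1a+/- group, being 0.86 without replicate 72, which had 100.3 normalized reads, and -0.11 without replicate 66, which had 1618. The C8g value was -0.12 without non-diabetic Hif1a+/- replicate 14.

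**Figure D5:**
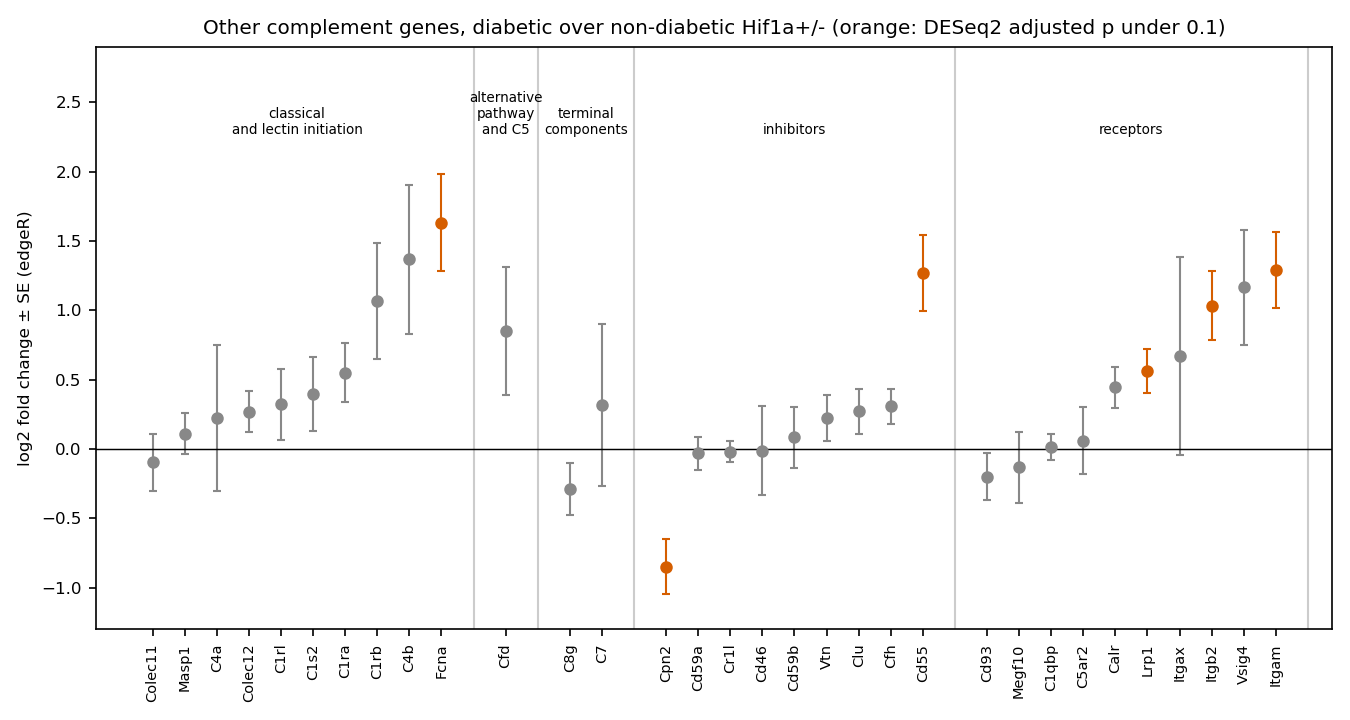
Log2 fold change ± standard error (edgeR, vertical axis) of diabetic over non-diabetic Hif1a+/- hearts for the 32 other complement genes that passed the filter (horizontal axis), in 5 roles. Orange points, the 6 genes that DESeq2 called, run from -0.85 (Cpn2) to 1.63 (Fcna).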

How the data were processed

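LV RNA of 12 mice was sequenced from the 3′ end. The authors trimmed reads with Trimmomatic, aligned them with STAR 2.5.2b to GRCm38, counted reads per gene with HTSeq and normalized with DESeq2. The deposited files give these raw counts and normalized counts (a signal scaled by 1 size factor per library). Counts of the 46983 genes, without rows that name no gene, were fitted over all 4 groups with edgeR 4.0.16 (quasi-likelihood test, TMM, R 4.3.3) after a filter on low counts, with Benjamini-Hochberg adjustment over 14706 genes and a threshold of 0.1. Alternatives were DESeq2 1.42.0, limma 3.58.1 (voom with sample quality weights), no filter and leaving out libraries. The code was tested on simulated data. Python 3.11.15 with numpy 2.4.6 and pandas 2.3.3 gave the summaries.

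The members and gene lists (other complement genes and markers of macrophages, monocytes and neutrophils, lymphocytes, fibroblasts, endothelium, adipocytes, red cells, mesothelium and cardiomyocytes) were chosen with earlier results of these data known. Named are the members, other complement genes that were called or had the 2 smallest edgeR p-values of their role within Hif1a+/-, the 10 genes most like C1q, and defining markers. Replicates are separate mice. Their counts differed beyond sampling noise, with chi-square per degree of freedom of 5.35 to 43.3, so each was counted once. Reads with more than 1 alignment were not counted.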

Additional observations from a re-analysis of the deposited data

How the results depend on the processing

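With edgeR, 0 of the 9 genes and 0 of the 32 other complement genes were called in each comparison, and these counts moved with the processing. Within Hif1a+/- (diabetic over non-diabetic), the count of the 9 was 8 without the low-count filter, 6 with DESeq2, 8 with limma-voom and sample quality weights, 0 to 4 when 1 library was left out (4 without diabetic Wt replicate 80, 3 without diabetic Hif1a+/- replicate 72 and 1 without diabetic Wt replicate 7) and 3 without replicates 25 and 72. For the other complement genes it was 11, 6, 8, 0 to 3 (3 without replicate 72) and 4. Between the diabetic groups the counts were 6 and 4 without the filter, and DESeq2 called 1 other gene. Between diabetic Hif1a+/- and non-diabetic Wt they were 8 and 7 without the filter and 4 and 2 with DESeq2. In the interaction they were 5 and 5 without the filter. These settings also called more of all genes. The shares were 2.19%, 0.812%, 1.64% and 0.288% without the filter in these 4 comparisons in the order given, and 6.37% with limma-voom within Hif1a+/-. With edgeR within Hif1a+/- they were 0.0799% without replicate 80, 0.0606% without replicate 7 and 0.281% without replicates 25 and 72. For the other fits with libraries left out no share of all genes is given here, and nothing is read from their counts. The genes were chosen on these values. Why the counts moved was not tested. Leaving out 1 library with DESeq2, or replicates 25 and 72 together, both chosen after seeing the data, gave 3 to 8 of the 9 within Hif1a+/- (3 without replicate 32 or 77), 0 to 5 against non-diabetic Wt (0 without replicate 25) and 0 to 5 against diabetic Wt (5 without replicate 80) and 0 to 1 in the interaction (1 without replicate 7). For the other complement genes it gave 3 to 9, 0 to 4, 0 to 5 and 0 to 3 (3 in the interaction without replicate 72). Of 153 alternative log2 fold changes of the 9 genes per comparison, 0 changed sign within Hif1a+/- and in the interaction, 16 between the Wt groups and 1 in each of the other 3 comparisons. No paired analysis was possible because replicate numbers are animal numbers and the sample labels used here give no litter. Which mice were littermates is therefore not known here. Precision is limited by 3 mice a group and, for C5ar1, by libraries with as few as 69 reads.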

Other observations

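C6, a terminal complement component, was below the filter on low counts, with 82 reads summed over the 12 libraries. Its mean normalized reads were 1.80 ± 0.703 (SD, n = 3) in non-diabetic and 12.1 ± 9.44 (SD, n = 3) in diabetic Hif1a+/- hearts. In Wt they were 9.19 ± 8.22 (SD, n = 3) without and 4.39 ± 1.66 (SD, n = 3) with maternal diabetes. Diabetic Hif1a+/- overlapped non-diabetic Wt, and with so few reads nothing is read from these means.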
